A study of Mus musculus with 12 samples.

Results

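The genes described here are 8 candidates for graded expression along the cochlear axis, namely *Inhba*, *Inhbb*, *Bmp4*, *Fst*, *Aldh1a2*, *Cyp26b1*, *A2m* and *Emilin2*. They were chosen by name, and all 8 are among the 37432 genes of the deposited expression table and among the 16215 that passed the filter on low values. The question was whether a difference between apical and basal turn kept its labelled turn in wild-type and in *Gjb2* 35delG homozygous mice. RNA-seq was performed on cochleae at P14 that had been cut into apical, middle and basal turns. The 3 turns of both genotypes made 6 groups with 2 libraries each, 12 in all. The wild-type mice were purchased males, whereas the homozygous males carried the 35delG deletion on both alleles of *Gjb2*, which encodes connexin 26, and were derived from embryonic stem cells by tetraploid complementation and borne by ICR foster mothers. Their background was almost C57BL/6J, and the labels name no treatment for either genotype. Genotype and origin of the mice therefore cannot be told apart. The labels write KO for the homozygous genotype. The study calls the libraries of a group biological repeats, but how many mice or cochleae went into each is not given in the sources used here.

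The cochlear duct is tonotopic, with high frequencies detected at the base and low frequencies at the apex. Activins are dimers of the beta subunits encoded by *Inhba* and *Inhbb*, which signal through type I and type II receptors to SMAD proteins, and follistatin, encoded by *Fst*, binds and neutralises them. In the embryonic mouse cochlea activin A is graded from the base and follistatin is highest at the apex, where the pair times the differentiation of the prosensory cells. BMP4 is a ligand of the same superfamily. Retinoic acid is made by the enzyme encoded by *Aldh1a2* and degraded by that encoded by *Cyp26b1*, so that the pair sets local levels of the morphogen. *A2m* encodes alpha-2-macroglobulin, a broad proteinase inhibitor, and *Emilin2* encodes a glycoprotein of the extracellular matrix that is found in the basilar membrane.

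*Emilin2* and *Inhba* were the members whose difference between middle and basal turn was itself different between the genotypes, and *Cyp26b1* separated the genotypes in every turn, so the sequences around their start sites are shown. The windows run from 250 bases before to 50 bases after the RefSeq start site, on GRCm38.p6. The *Emilin2* window lies at chr17:71311507-71311806 on the minus strand, the *Inhba* window at chr13:16011601-16011900 on the plus strand, and the *Cyp26b1* window at chr6:84593761-84594060 on the minus strand. Capitals mark matches to the 4 motifs searched on both strands.
Emilin2: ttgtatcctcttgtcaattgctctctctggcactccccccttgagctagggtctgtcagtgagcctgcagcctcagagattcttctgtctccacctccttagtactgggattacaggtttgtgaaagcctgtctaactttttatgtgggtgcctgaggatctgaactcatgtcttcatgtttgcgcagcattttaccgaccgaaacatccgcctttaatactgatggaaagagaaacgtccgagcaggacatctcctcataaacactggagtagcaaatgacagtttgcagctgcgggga
Inhba: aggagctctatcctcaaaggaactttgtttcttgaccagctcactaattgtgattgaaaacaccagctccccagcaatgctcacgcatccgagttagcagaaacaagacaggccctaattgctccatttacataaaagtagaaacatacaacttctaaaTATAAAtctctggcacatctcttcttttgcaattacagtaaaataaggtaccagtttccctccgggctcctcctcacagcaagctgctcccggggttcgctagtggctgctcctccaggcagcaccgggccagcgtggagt
Cyp26b1: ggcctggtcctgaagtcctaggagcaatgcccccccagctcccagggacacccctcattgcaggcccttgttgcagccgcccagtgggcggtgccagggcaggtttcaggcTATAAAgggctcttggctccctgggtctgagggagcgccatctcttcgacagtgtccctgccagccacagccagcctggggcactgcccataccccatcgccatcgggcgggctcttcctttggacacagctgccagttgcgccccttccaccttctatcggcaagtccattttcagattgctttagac
The capitals in the *Inhba* and *Cyp26b1* windows are TATAAA, the core of the TATA box, which 13.6% of all 32817 windows held, found at window positions 160 and 112. These lie at -91 and -139 from the start site, and whether either works as a TATA box was not tested. The other motifs were AGGTCA, to which retinoid receptors bind (16.3% of windows), GGCGCC, which SMAD proteins bind (11.9%), and GTCTAGAC, a palindrome of SMAD binding elements (0.213%). GTCTAGAC is its own reverse complement, as is GGCGCC, and no motif overlapped another in these windows. Of the 8 members, 6 matched the RefSeq table, with 7 windows. *Fst* and *A2m* did not match. The *Aldh1a2* window, the richest in G and C of the 7 at 78.0%, held GGCGCC at positions 8 and 149. The windows of *Inhbb*, *Bmp4* and *Emilin2*, which has 2, held none of the 4. Only the *Inhba* window (47.7%) and this *Emilin2* window (48.3%) were below the median G and C content of all windows, 52.7%.

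All 8 members are protein-coding genes of the GENCODE M21 annotation of mm10. *Fst* lies at chr13:114452290-114458951 and *Inhba* at chr13:16011851-16031621, on the same chromosome. *Inhbb* lies at chr1:119415465-119422248, *Bmp4* at chr14:46383520-46390669, *Cyp26b1* at chr6:84571414-84593908 and *Aldh1a2* at chr9:71215789-71296243. *A2m* (chr6:121636228-121679227) and *Emilin2* (chr17:71252172-71311556) have the same identifier in that annotation but another start or end in the deposited table.

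Values are FPKM, a measure of transcript level per unit of length and of library size, divided here by 1 scaling factor for each library (0.917 to 1.06). FPKM keep no read count, so the depth and the counting error are unknown. Differences are on the log2(scaled FPKM + 1) scale, which understates the change of genes near 1 FPKM, and genes counted as called when limma gave an adjusted p below 0.01 with more than a 2-fold change. With 2 libraries a group many genes do not overlap between groups, from 26.9% to 65.4% of the genes tested in the 11 comparisons of 2 groups. The libraries held 13729 to 14703 genes at 1 FPKM or more, and 7.32% to 20.6% of FPKM came from mitochondrial genes. *Gjb2* transcripts ranged from 140 to 434 scaled FPKM over the 6 wild-type libraries and from 58.6 to 451 over the 6 homozygous ones. By the means, homozygous turns had 1.41 (apical), 1.73 (middle) and 0.268 times (basal) the wild-type level, and no turn was called. The study reported less *Gjb2* RNA in homozygous cochlea by qPCR, without dividing it into turns. Since the deletion removes 1 base, these levels do not check the genotype.

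Markers of the cell types in the turns did not keep 1 order along the axis in both genotypes, so they are given before the members. The 10 hair cell markers summed to 606 to 615 scaled FPKM in wild-type apical turns, 57.3 to 131 in middle and 140 to 161 in basal. In homozygous mice the same sum was 322 to 367 in apical, 246 to 429 in middle and 22.4 to 32.8 in basal turns. The sums give much weight to *Ocm*, at 0.345 and 20.2 in wild-type middle and 21.2 and 46.6 in wild-type basal libraries. *Myo7a*, *Gfi1* and *Chrna10* were likewise lower in both of these middle libraries. *Pou4f3*, *Otof*, *Slc17a8*, *Slc26a5*, *Tmc1* and *Myo6* overlapped between these groups. None of the 10 was called there, whereas 4 were called higher in homozygous middle than basal turns. The libraries labelled wild-type middle and homozygous basal thus held the lowest hair cell sums of their genotypes, and every middle or basal value below holds for the turns as labelled. Whether the middle and basal labels were exchanged in 1 genotype was not tested. They also held the highest neuronal sums over 8 markers, 1491 to 1694 and 2827 to 3198, against 11.1 to 942 in all other groups. The same pair of groups led the 9 Schwann cell and myelin markers, with 5828 to 20144 and 9463 to 14933, against 838 to 5689 elsewhere. The homozygous basal libraries had the lowest sums of the 8 supporting cell markers (23.5 to 91.4, against 201 to 1773 in the other groups) and of the 7 spiral ligament fibrocyte markers (476 to 2737, against 6824 to 12443). The supporting cell sum gives most weight to *Epyc*, which reached 1497, and its markers did not all follow it. Of the 8, 5 were called higher in homozygous middle than basal turns. *Prox1* went the other way, at 11.99 and 3.84 in homozygous basal against 0.280 and 1.01 in wild-type basal libraries. *Sox2* overlapped between these groups, at 7.88 and 9.34 against 7.95 and 11.9. The wild-type basal replicates stood apart from each other, with neuronal sums of 11.1 in replicate 1 and 828 in replicate 2. All listed markers were tested, and those listed at 0 in some library were *Pou4f3* and *Slc26a5* (1 library each), and *Kcne1*, *Bsnd* and *Slc22a6* (4 libraries each). In bulk tissue, fewer cells of a type and less RNA per cell cannot be told apart.

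**Figure D1:**
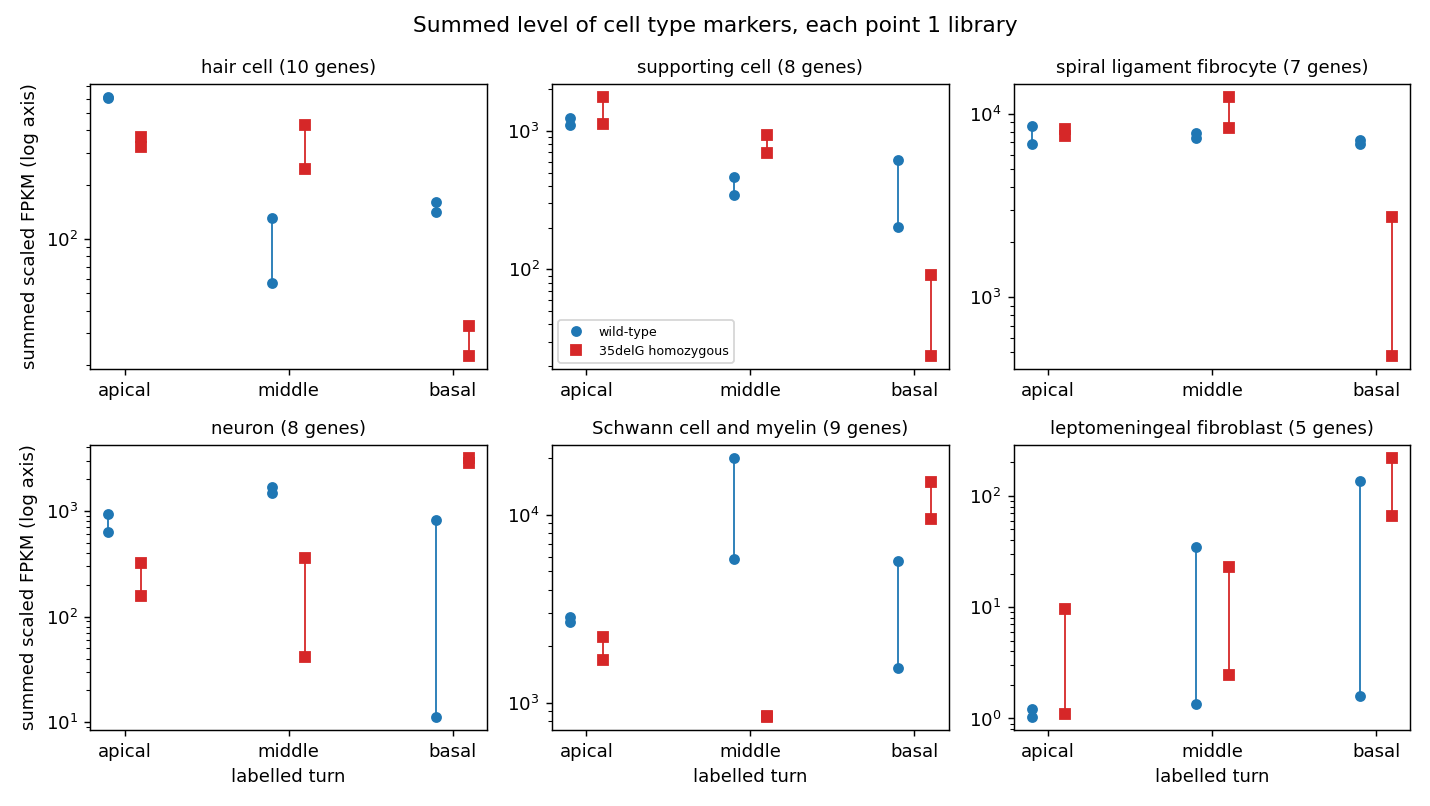
Summed scaled FPKM (log axis) of 6 cell marker lists against the labelled turn, with 1 point per library, blue for wild-type and red for 35delG homozygous, and lines joining the 2 libraries of a group. The hair cell sum was lowest in homozygous basal libraries (22.4 to 32.8), and the neuron sum was highest there (2827 to 3198).

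*Inhba* was the ligand subunit whose turn difference changed with the genotype. In wild-type mice its levels were 2.05 and 2.58 scaled FPKM in apical, 0.773 and 1.74 in middle, and 3.51 and 1.38 in basal turns. The basal replicates enclosed both apical values, and no order along the axis could be read. In homozygous mice *Inhba* was at 3.46 and 1.67 in apical and 3.24 and 4.69 in middle turns, but at 0.148 and 0.196 in basal turns, below every other library. The wild-type apical minus basal difference was 0.01 (SE 0.37, adjusted p = 0.987), and the middle minus basal difference was -0.57 (adjusted p = 0.527). In homozygous mice *Inhba* was higher in middle than in basal turns by 2.07 (SE 0.37, adjusted p = 0.00898), or 23.0 times by the means. Its apical minus basal difference, 1.56, did not pass (adjusted p = 0.0221). The middle minus basal difference exceeded that of wild-type mice by 2.64 (95% interval 1.44 to 3.83, adjusted p = 0.00913). Its lowest level was thus in the homozygous turn labelled basal. This difference between genotypes passed only narrowly, since leaving out any of 11 of the 12 libraries ended the call, with values of 2.18 to 2.96 and adjusted p up to 0.0349, and only without wild-type basal replicate 2 did it stay (3.10). The call of the homozygous middle minus basal difference ended without any library other than the wild-type basal pair, at 1.85 to 2.27 and adjusted p up to 0.0496. The homozygous apical minus basal difference passed without wild-type basal replicate 1 (adjusted p = 0.00954) or replicate 2 (adjusted p = 0.00926).

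*Inhbb*, the other activin subunit, was barely expressed and reached 1 FPKM in 2 of the 12 libraries. Wild-type levels were 0.284 and 0.368 in apical, 1.13 and 0.274 in middle, and 0.303 and 1.49 in basal turns. Homozygous levels were 0.518 and 0.855, 0.769 and 0.693, and 0.951 and 0.555, in the same order of turns. The turns overlapped in both genotypes, so their order could not be read. The apical minus basal difference was -0.44 in wild-type (adjusted p = 0.476) and -0.05 in homozygous mice (adjusted p = 0.939), and these differed by 0.39 (95% interval -0.73 to 1.51).

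*Bmp4* showed the narrowest fold range of the 8, from 7.01 to 18.8 scaled FPKM. Wild-type turns had 15.1 and 16.2 scaled FPKM in apical, 11.7 and 8.31 in middle, and 14.9 and 18.8 in basal libraries. Homozygous turns had 15.6 and 9.94, 11.5 and 13.3, and 7.01 and 15. Within wild-type mice both middle values lay below both basal values, whereas the homozygous turns overlapped. The difference between wild-type middle and basal turns was -0.71 (adjusted p = 0.361), and apical against basal was -0.10 (adjusted p = 0.880). In homozygous mice the apical minus basal difference was 0.25 (adjusted p = 0.662), and the middle minus basal difference exceeded the wild-type one by 0.95 (95% interval -0.12 to 2.02, adjusted p = 0.173).

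*Fst*, the activin antagonist, was highest at the apex in homozygous mice. Wild-type levels were 7.43 and 8.02 in apical, 15.7 and 3.20 in middle, and 1.5 and 3.49 in basal turns. The apical pair lay above the basal pair, while the middle replicates differed 4.90 times and enclosed the apical ones. Homozygous levels were 49.4 and 24.2 in apical, 3.86 and 5.38 in middle, and 2.07 and 0.674 in basal turns, so the turns followed each other without overlap. The homozygous apical minus basal difference was 3.98 (SE 0.63, adjusted p = 0.00654), or 26.8 times by the means. In wild-type mice it was 1.38 (SE 0.63, adjusted p = 0.255), with the same direction. The genotypes differed in it by 2.60 (95% interval 0.59 to 4.60), which did not pass (adjusted p = 0.0902). Homozygous apical turns had more *Fst* than wild-type apical turns in each library, at a difference of 2.03 (adjusted p = 0.168). The homozygous middle minus basal difference was 1.30 (adjusted p = 0.178) and the wild-type one 1.32 (adjusted p = 0.365), which was 0.33 without wild-type middle replicate 1 and 2.32 without replicate 2. The homozygous call ended without either library of wild-type apical, homozygous apical, homozygous middle or homozygous basal turns, 8 of 12, with differences of 3.47 to 4.48 and adjusted p up to 0.0614.

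*Aldh1a2*, which makes retinoic acid, was higher in wild-type basal turns, at 19.4 and 17.2 scaled FPKM, than in apical (11.1 and 7.64) or middle ones (7.02 and 5.16). The 3 wild-type turns did not overlap. In homozygous mice apical (12.3 and 14.4) and middle turns (12.9 and 14.8) overlapped and lay between the basal replicates, 8.16 and 32.1. No difference passed. Wild-type apical minus basal was -0.91 (SE 0.49, adjusted p = 0.312) and middle minus basal was -1.46 (adjusted p = 0.20), against -0.28 and -0.23 in homozygous mice (adjusted p = 0.749 and 0.771). Homozygous basal replicate 2 decided the homozygous directions. Without it they were 0.63 and 0.69, and the middle minus basal difference exceeded the wild-type one by 2.14 (adjusted p = 0.00718) in place of 1.23 (adjusted p = 0.224). That library also had the highest sum of the 5 leptomeningeal fibroblast markers, 220 scaled FPKM, against 66.1 in replicate 1 of its group. In wild-type basal turns the sum was 1.59 in replicate 1 and 137 in replicate 2, where *Aldh1a2* was at 19.4 and 17.2. It was 1.36 to 34.5 in wild-type middle and 1.03 to 1.21 in wild-type apical libraries. Homozygous apical libraries had 1.09 to 9.70 and homozygous middle ones 2.48 to 22.8. The part of these markers in the *Aldh1a2* values was not tested.

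*Cyp26b1*, which degrades retinoic acid, was low in wild-type mice and higher in every homozygous library than in every wild-type library, a separation of the genotypes that 1.47% of the genes tested showed in either direction. Wild-type levels were 0.753 and 0.783 in apical, 0.985 and 0.540 in middle, and 0.403 and 1.60 in basal turns. Homozygous levels were 13.6 and 6.61 in apical, 3.16 and 2.25 in middle, and 1.83 and 2.72 in basal turns. The homozygous apical pair lay above all other libraries. Homozygous minus wild-type differences were 2.58 in apical (adjusted p = 0.0222), 1.07 in middle (adjusted p = 0.122) and 0.77 in basal turns (adjusted p = 0.20), which did not pass. By the means these were 13.2, 3.55 and 2.27 times. The apical minus basal difference was -0.11 in wild-type (adjusted p = 0.876) and 1.70 in homozygous mice (adjusted p = 0.0173), and these differed by 1.81 (95% interval 0.61 to 3.02, adjusted p = 0.0578). The homozygous difference passed without wild-type basal replicate 1 (adjusted p = 0.00768) or replicate 2 (adjusted p = 0.00772). The 5 strial marginal cell markers summed to 105 to 305 scaled FPKM in homozygous apical and 123 to 194 in homozygous middle turns, against 3.78 to 5.89 and 6.43 to 7.67 without the deletion. Basal libraries had sums of 4.17 to 94.8 (homozygous) and 13 to 143 (wild-type). Within each homozygous turn, and within wild-type middle turns, the library with the higher strial sum had the lower *Cyp26b1* level. In wild-type apical and basal turns the library with the higher sum had the higher level. The list's part in the *Cyp26b1* values was not tested.

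*A2m* had no turn difference that passed. Wild-type levels were 18.8 and 8.79 in apical, 30.9 and 22.2 in middle, and 23.2 and 18.0 in basal turns. Homozygous levels were 18.7 and 15, 16.4 and 46.8, and 10.2 and 14.9. The wild-type middle pair lay above the apical pair, and in homozygous mice the basal pair lay below the others. Wild-type apical minus middle was -0.97 (adjusted p = 0.291) and apical minus basal -0.62 (adjusted p = 0.465). Homozygous middle minus basal was 1.11 (adjusted p = 0.138), or 1.84 without homozygous middle replicate 1 and 0.38 without replicate 2, and apical minus basal 0.41 (adjusted p = 0.611), and the apical minus basal differences of the genotypes differed by 1.04 (adjusted p = 0.352).

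*Emilin2* had the highest levels of the 8 and the widest range. Wild-type levels were 1099 and 725 scaled FPKM in apical, 23.0 and 20.8 in middle, and 106 and 89.9 in basal turns. Homozygous levels were 460 and 318 in apical, 386 and 326 in middle, and 31.7 and 5.85 in basal turns. The middle turn was thus the lowest in wild-type mice and close to the apical turn in homozygous mice. Means were 912 ± 265, 21.9 ± 1.53 and 98.0 ± 11.4 in wild-type apical, middle and basal turns, and 389 ± 100.4, 356 ± 42.2 and 18.8 ± 18.3 in homozygous ones (SD, n = 2). In homozygous mice apical exceeded basal turns by 4.68 (SE 0.59, adjusted p = 0.00473) and middle exceeded basal by 4.57 (adjusted p = 0.00427), or 20.7 and 19.0 times by the means. Homozygous apical and middle turns overlapped, with a difference of 0.11 (95% interval -1.24 to 1.46). In wild-type mice apical exceeded basal turns by 3.18 (SE 0.59, adjusted p = 0.0490) and middle turns by 5.29 (adjusted p = 0.0111), which did not pass at 0.01, and middle minus basal was -2.11 (adjusted p = 0.154). The apical to basal direction was thus the same in both genotypes, and the differences differed by 1.5 (95% interval -0.41 to 3.41, adjusted p = 0.278), or by 2.64 without homozygous basal replicate 1 and 0.37 without replicate 2. The middle minus basal difference had opposite signs and differed by 6.68 (95% interval 4.77 to 8.59, adjusted p = 0.00260).

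For *Emilin2* the middle minus basal difference between the genotypes held in 11 of the 12 fits that left out a library, at 5.53 to 7.81, and missed without wild-type middle replicate 1 (6.75, adjusted p = 0.0101). Without the wild-type basal replicates, which stood apart, it was 6.57 (replicate 1) and 6.80 (replicate 2). The homozygous apical minus basal call ended without either wild-type apical, either homozygous apical or the second homozygous basal library, at 3.54 to 4.95 and adjusted p up to 0.0496. That of middle minus basal ended without either wild-type apical, homozygous apical or homozygous middle library, or the second homozygous basal one, at 3.43 to 4.69 and adjusted p up to 0.0200. The wild-type apical minus middle difference passed without homozygous basal replicate 1 (adjusted p = 0.00103) or replicate 2 (adjusted p = 0.00116). Like *Emilin2*, the hair cell marker sums above were highest in wild-type apical turns and, within each genotype, lowest in wild-type middle and homozygous basal turns. Between homozygous apical and middle turns these sums overlapped, so no order could be read there. The part of the hair cell markers in the *Emilin2* values was not tested.

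**Figure D2:**
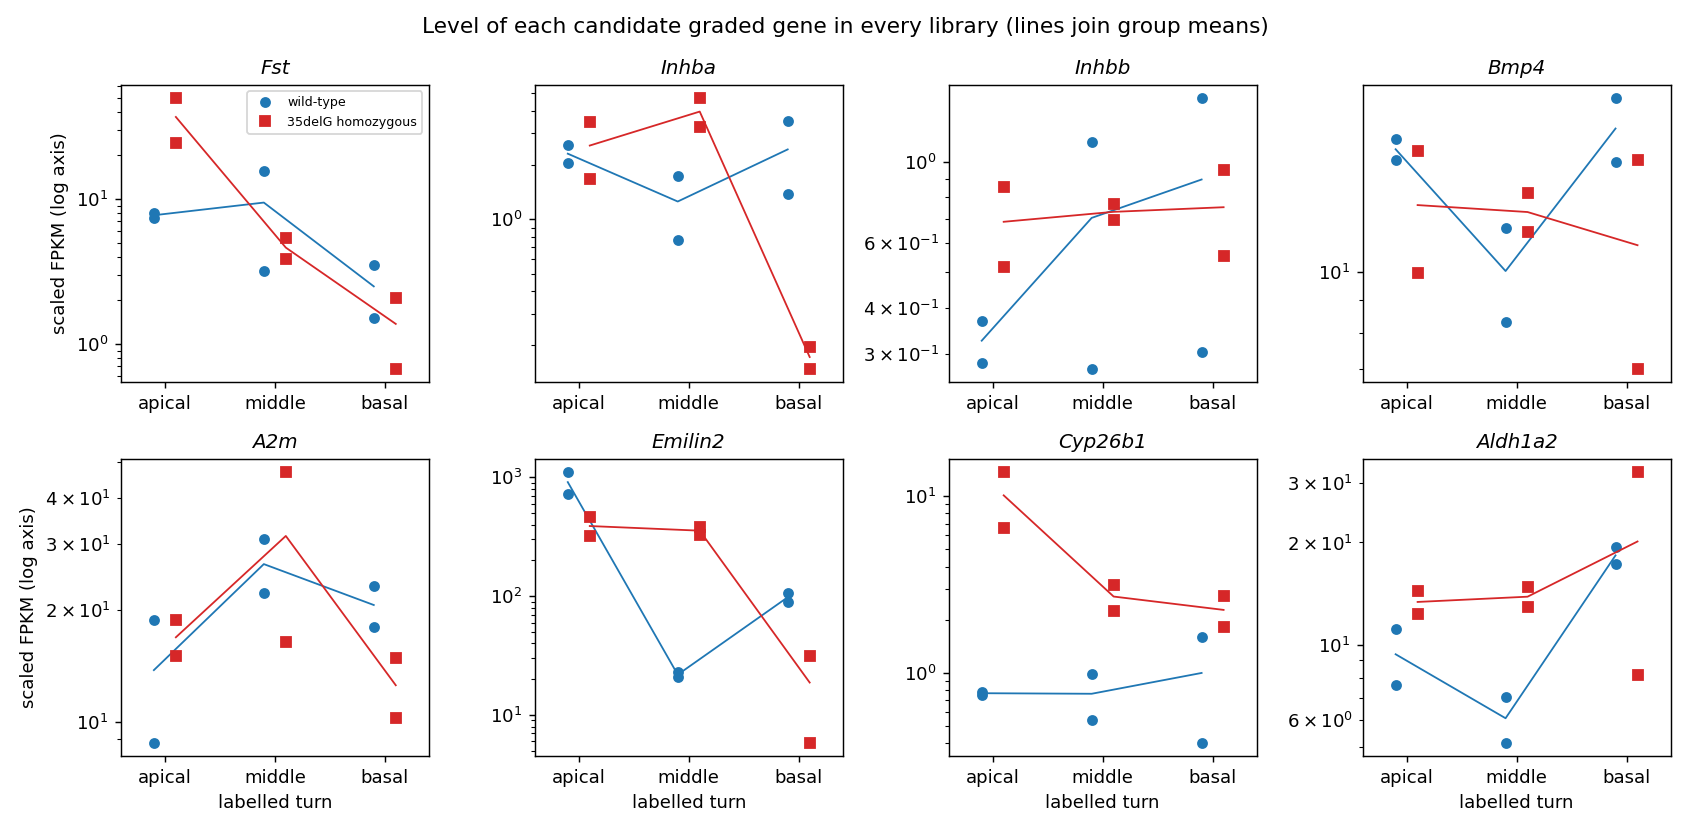
Scaled FPKM of the 8 members (log axis) against the labelled turn, with 1 point per library, blue circles for wild-type and red squares for 35delG homozygous, and lines joining group means. In the middle turn *Emilin2* ranged from 20.8 to 23.0 scaled FPKM without the deletion and from 326 to 386 with it, and *Inhba* was lowest in homozygous basal libraries (0.148 and 0.196).

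Counted over the 8, no member was called between wild-type turns, whereas 2 were called in each homozygous comparison with the basal turn. For apical against basal turns, limma called 0 of 8 in wild-type mice, where 0.0863% of the genes tested were called, and 1 member (*Emilin2*) was below an unadjusted p of 0.05, as were 20.3% of genes. In homozygous mice 2 of 8, *Fst* and *Emilin2*, both higher at the apex, were called beside 4.06% of genes. For middle against basal turns the counts were 0 of 8 in wild-type mice (0% of genes, 0 of 16215), with 2 members and 15.2% of genes (2472) below an unadjusted p of 0.05, and 2 of 8 in homozygous mice, *Inhba* and *Emilin2*, both higher in the middle turn, beside 4.66% of genes. For apical against middle turns 0 of 8 were called in wild-type mice, beside 0.0863% of genes, with 1 member and 19.9% of genes below 0.05 unadjusted. In homozygous mice 0 of 8 and 0% of genes were called for that pair, with 2 members, *Fst* and *Cyp26b1*, and 429 genes (2.65%) below 0.05 unadjusted.

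**Figure D3:**
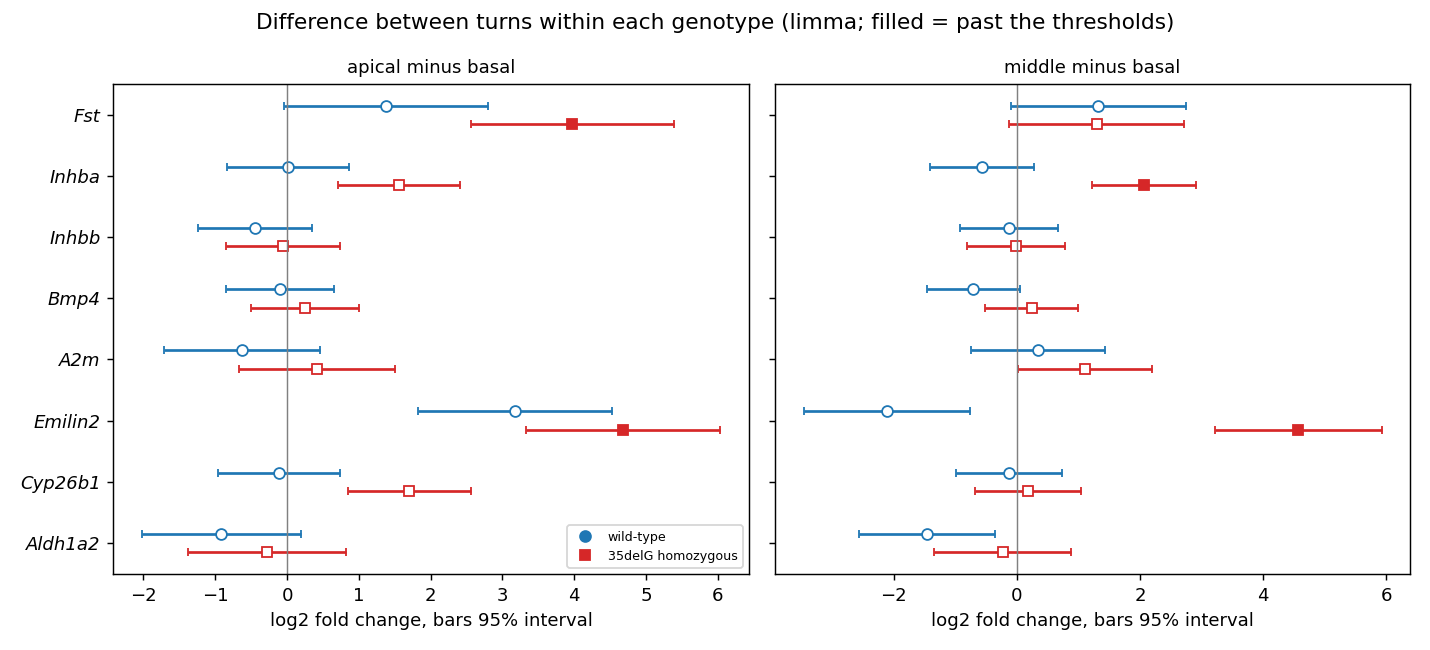
Log2 differences with 95% intervals (limma) for apical minus basal and middle minus basal turns in each of the 8 members, blue for wild-type and red for homozygous mice, with filled points past the thresholds. The filled points were *Fst* (3.98) and *Emilin2* (4.68) for apical minus basal and *Inhba* (2.07) and *Emilin2* (4.57) for middle minus basal, all homozygous.

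Whether a turn difference itself changed with the genotype was tested as a difference of differences. For apical minus basal 0 of 8 were called, beside 0.796% of genes, with *Fst*, *Inhba* and *Cyp26b1* (3 of 8) and 28.4% of genes below an unadjusted p of 0.05. For middle minus basal 2 of 8, *Inhba* and *Emilin2*, were called beside 8.91% of genes, and the median of the 8 was 0.86 against 0.12 over all genes tested. For apical minus middle 0 of 8 and 0% of genes were called, with 3 members, *Fst*, *Emilin2* and *Cyp26b1*, and 1306 genes (8.05%) below 0.05 unadjusted. *Emilin2* had a difference of -5.18 there (adjusted p = 0.170) and *Fst* one of 2.62 (adjusted p = 0.579).

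**Figure D4:**
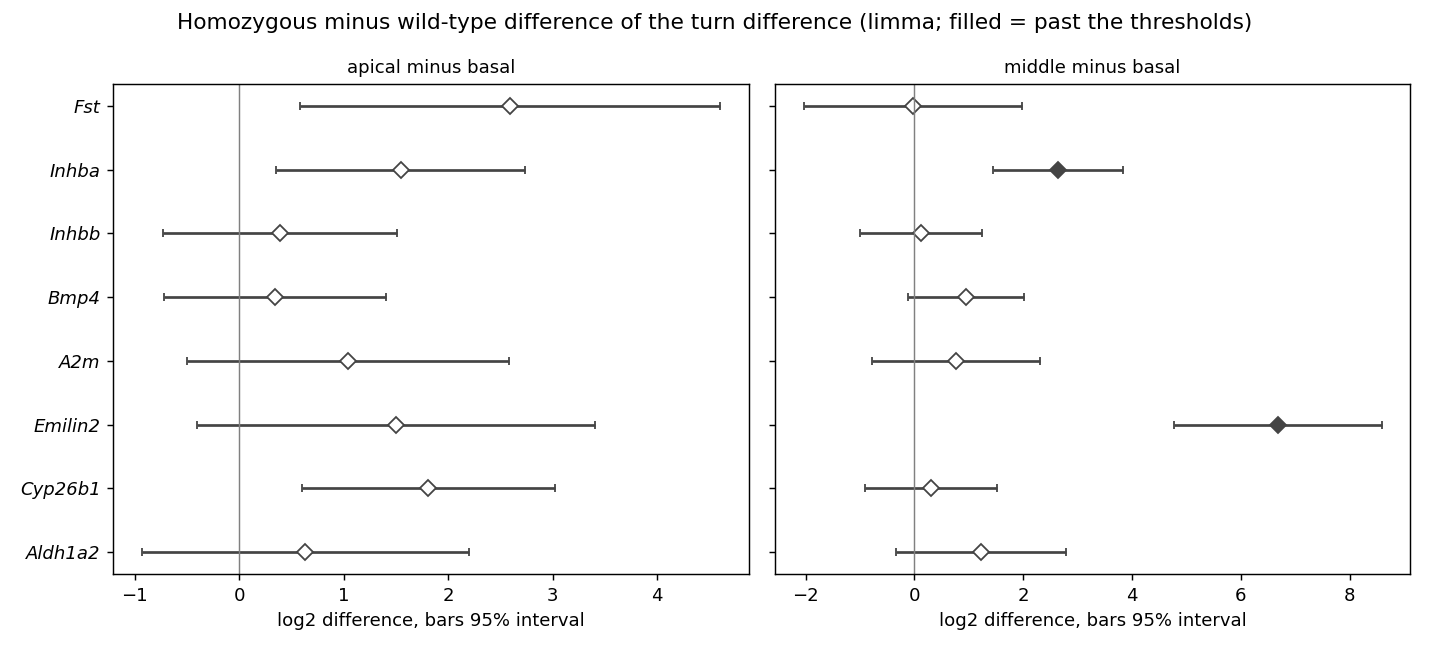
Homozygous minus wild-type difference of the turn difference in each of the 8 members (log2, limma), with bars for 95% intervals and filled diamonds past the thresholds. For middle minus basal *Inhba* (2.64) and *Emilin2* (6.68) passed, and for apical minus basal the interval of *Emilin2* (-0.41 to 3.41) included 0.

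Within a turn, 0 of 8 members were called between the genotypes. In apical turns 0.179% of all genes were called, and 2 members and 16.4% of genes were below an unadjusted p of 0.05. In middle turns the share was again 0.179%, with 3 members and 25.4% of genes below 0.05 unadjusted. In basal turns it was 4.29%, with 2 members and 32.4% of genes below 0.05 unadjusted. *Emilin2* was the member of greatest difference in middle turns, at 3.96 (adjusted p = 0.0202), and in basal turns, at -2.72 (adjusted p = 0.0169), with no overlap of the libraries in either, as for 59.5% and 54% of genes. In apical turns its difference was -1.22 (adjusted p = 0.353). *Inhba* differed by 1.16 in middle (adjusted p = 0.10) and by -1.48 in basal turns (adjusted p = 0.0269), again with opposite signs. *Emilin2* in middle turns passed without homozygous basal replicate 1 (adjusted p = 0.00127) or replicate 2 (adjusted p = 0.00143), and in basal turns without replicate 1 of that group (-3.85, adjusted p = 0.00205). *Inhba* in basal turns passed without wild-type basal replicate 2 (-1.94, adjusted p = 0.00812). For *Aldh1a2* the middle turns differed by 1.08 (adjusted p = 0.207).

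Since several members took opposite directions in the middle and basal turns of the genotypes, each homozygous turn was also set against the other labelled turn of wild-type mice. Homozygous middle against wild-type basal turns gave 0 of 8 members and 0.0802% of genes called, with *Emilin2* and *Cyp26b1* (2 of 8) and 6.98% of genes below an unadjusted p of 0.05. Here *Emilin2* was 3.63 times higher by the means, a difference of 1.85 (adjusted p = 0.523). Homozygous basal against wild-type middle turns gave 0 of 8 members and 0.117% of genes, with *Fst*, *Inhba*, *Cyp26b1* and *Aldh1a2* (4 of 8) and 14% of genes below 0.05 unadjusted. Against the same label the shares of genes called were 0.179% for middle and 4.29% for basal turns. In this comparison *Emilin2* overlapped, with a difference of -0.61 (95% interval -1.96 to 0.74), which became 0.52 without homozygous basal replicate 2, and *Aldh1a2* differed by 1.31 (adjusted p = 0.277). *Inhba* at 0.148 and 0.196 lay below the wild-type middle values of 0.773 and 1.74 as well as below the wild-type basal ones. *Cyp26b1* stayed higher in both homozygous groups than in the wild-type group of either label.

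The genes whose levels over the 12 libraries were most like those of the members were named by Pearson correlation on the log2 scale, as a description over libraries that share 6 groups. *Notum* (r = 0.977), a secreted deacylase that inactivates Wnt proteins, and *Adgrd1* (r = 0.969), an adhesion G protein-coupled receptor, were nearest to *Emilin2*. *Notum* was at 78.5 and 44.8 scaled FPKM in wild-type apical, 3.87 and 3.72 in middle, and 8.44 and 4.45 in basal turns. In homozygous mice it was at 31.6 and 24.9, 21.2 and 23.1, and 3.58 and 0.671. Like *Emilin2*, *Notum* was lowest in the wild-type middle and the homozygous basal turns. *Adgrd1* was at 35.0 and 22.0, 3.38 and 2.49, and 6.59 and 5.17 in wild-type turns, and at 15.2 and 10.2, 10.6 and 8.91, and 1.69 and 0.803 in homozygous ones. Since these genes were chosen for their likeness over the same libraries, their turn and genotype differences were not tested as results.

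Nearest to *Inhba* were *Wscd2* (r = 0.949) and *Fam114a1* (r = 0.940). *Fam114a1* was at 10.5 to 18.5 scaled FPKM in 10 libraries and at 7.48 and 9.30 in the homozygous basal pair. *Scg2*, a granin of secretory vesicles (r = 0.894), and *Tecta*, a protein of the tectorial membrane (r = 0.892), were nearest to *Cyp26b1*. *Scg2* was at 119 and 35.2 in homozygous apical libraries and at most 4.07 elsewhere, and *Tecta* was at 81.3 and 47.8 there and at most 11.9 elsewhere. *Hacd2* (r = 0.912) and *Wnt2b* (r = 0.870), a Wnt ligand, were nearest to *Fst*. For *Inhbb* they were *Insc* (r = 0.914) and *Sp7* (r = 0.898), an osteoblast transcription factor, for *Bmp4* *Fndc3a* (r = 0.932) and *Por* (r = 0.862), for *A2m* *Rgs5*, a pericyte marker (r = 0.779), and *Sertad4* (r = 0.755), and for *Aldh1a2* *Clybl* (r = 0.936) and *Arhgap29* (r = 0.910).

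**Figure D5:**
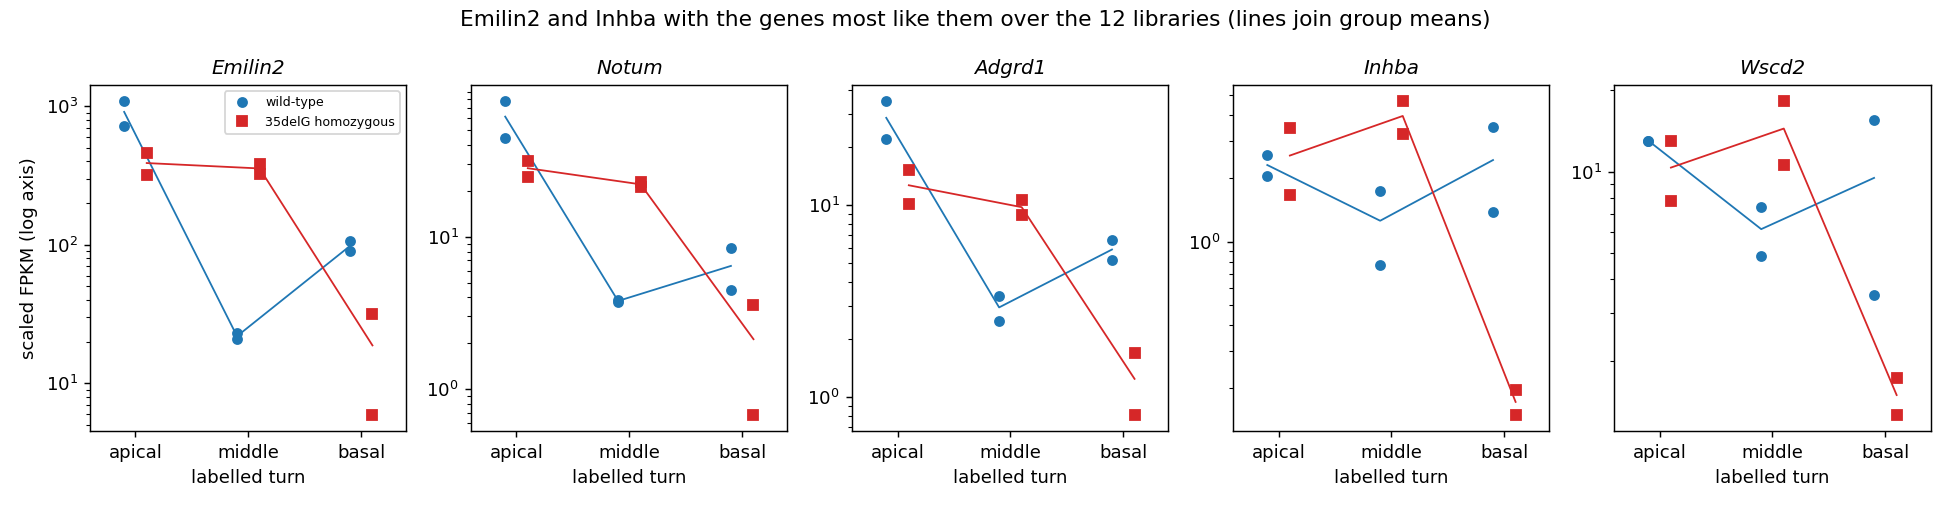
Scaled FPKM (log axis) against the labelled turn for *Emilin2* with *Notum* and *Adgrd1*, and for *Inhba* with *Wscd2*, with 1 point per library, blue for wild-type and red for homozygous, and lines joining group means. In wild-type middle libraries *Notum* was at 3.72 and 3.87, and in homozygous ones at 21.2 and 23.1.

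The other genes of the members' pathways were counted from 7 lists. No listed gene was called between wild-type turns. Over all genes tested, 8.91% were called in the middle minus basal difference between genotypes, and 4.06% and 4.66% in homozygous apical and middle against basal turns, and the counts below stand beside these shares. Of 13 other activin and BMP ligands tested, *Gdf6*, a growth factor of the BMP group, was called. It was at 19.0 and 6.42 scaled FPKM in wild-type basal turns and at 0.0814 and 0.0285 in homozygous basal turns, against 1.55 and 4.0 in wild-type middle and 13.8 and 25.0 in homozygous middle turns. In homozygous mice *Gdf6* was higher in middle than in basal turns by 4.22 (adjusted p = 0.00375) and in apical than in basal turns by 4.45 (adjusted p = 0.00442), and the middle minus basal difference exceeded the wild-type one by 5.99 (adjusted p = 0.00227). None of 10 receptors was called in homozygous turn contrasts or differences between genotypes, where 4 were higher and 1 lower at an unadjusted p below 0.05 for homozygous apical against basal turns, as were 32.9% of genes, and *Tgfbr2*, the highest on average, ranged from 17.6 to 53.7 scaled FPKM. Of 13 SMAD proteins and targets, the middle minus basal difference of *Smad6*, an inhibitory SMAD, exceeded the wild-type one by 1.57 (adjusted p = 0.00347), and that of *Smad9*, which transmits BMP signals, was lower by -3.24 (adjusted p = 0.00635). Of 12 other antagonists, *Sostdc1*, which binds BMPs, was lower by -3.99 (adjusted p = 0.00558). The medians of the middle minus basal differences between genotypes were 0.97 for ligands, 0.38 for receptors, 0.46 for SMADs and targets and 0.91 for antagonists, beside 0.12 for all genes tested.

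Of 15 other genes of the retinoic acid pathway, 1 was called upward and 2 downward in the middle minus basal difference between genotypes, with a median of 0.95. *Rara*, a retinoic acid receptor, was the one upward (1.15, adjusted p = 0.00932). *Aldh1a3*, another enzyme that makes retinoic acid, was at 40.2 and 64.9 in wild-type middle, 2.09 and 8.88 in wild-type basal, 18.0 and 3.88 in homozygous middle and 122 and 47.2 in homozygous basal turns. Its difference was -6.24 (adjusted p = 0.00536). *Crabp1*, a retinoic acid binding protein, was at 5.40 and 3.57, 1.02 and 0.563, 0.396 and 0.359, and 3.40 and 2.97 in the same 4 groups. It was lower in middle than in basal turns of homozygous mice by -1.60 (adjusted p = 0.00507), and the genotypes differed by -3.21 for middle minus basal (adjusted p = 0.00158) and -3.01 for apical minus basal (adjusted p = 0.00663). In wild-type apical turns *Aldh1a3* was at 24.7 and 32.4 and *Crabp1* at 3.87 and 3.9.

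Of 17 other genes of the EMILIN family and elastic fibre, *Lox*, which cross-links collagen and elastin, and *Emilin3* were called. *Lox* was at 37.6 and 74.5 in wild-type middle, 120 and 211 in wild-type basal, 65.1 and 43.1 in homozygous middle and 7.28 and 6.17 in homozygous basal turns. Homozygous middle exceeded basal turns by 2.81 (adjusted p = 0.00440), and the genotypes differed by 4.38 (adjusted p = 0.00240). *Emilin3* was at 0.378 and 0.280 in homozygous basal turns against 3.53 and 7.82 in middle and 5.55 and 3.83 in apical turns, and exceeded basal turns by 2.25 in middle (adjusted p = 0.00720) and 2.08 in apical turns (adjusted p = 0.00955). None of 3 genes of the A2M family and receptor list was called in the turn contrasts or their differences between genotypes. For middle minus basal, 1 of 3 was lower at an unadjusted p below 0.05 in homozygous mice and in the difference between genotypes. Of all genes tested, 34.6% and 37.7% were below 0.05 unadjusted in these, in either direction. *Lrp1*, the receptor of activated alpha-2-macroglobulin, was at 37.7 to 53.4 scaled FPKM in all libraries. When a library was left out, the difference between genotypes for middle minus basal was past the thresholds in all 12 fits for *Gdf6*, *Crabp1* and *Lox*, whereas it missed in 2 for *Smad6*, 9 for *Aldh1a3*, 10 each for *Smad9* and *Sostdc1*, and all 12 for *Rara*. The apical minus basal difference of *Crabp1* between genotypes missed in 9. The calls between homozygous turns given here missed in 5 and 6 fits for *Gdf6* (apical and middle against basal), 8 each for *Crabp1* and *Lox*, and 8 and 10 for *Emilin3*.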

How the data were processed

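RNA-seq libraries of 3 cochlear turns at P14 were grouped by the genotype and turn of their labels. The authors trimmed reads with fastp (v0.20.0), aligned them to mm10 with STAR (v2.7.3a), kept unique alignments and calculated FPKM with StringTie (v2.0). The FPKM values the authors deposited, 1 table of 37432 genes, were used here, and read counts were not. FPKM leave the depth of a library unknown, and reads shared with near-identical genes were dropped at alignment. Each library was scaled by the median of ratios of its FPKM, using 11552 genes that reached 1 FPKM in all 12. Testing was limited to 16215 genes that reached 1 FPKM in at least 2 of them. The limma package (3.58.1, R 4.3.3) was fitted to log2(scaled FPKM + 1) with a mean for each group and trended eBayes (residual degrees of freedom 6, prior 2.78), using two-sided tests and Benjamini-Hochberg adjustment over all genes tested. Genes were called at an adjusted p below 0.01 and a fold change above 2, in 14 comparisons. On data simulated for wild-type apical against basal turns (15579 genes), 79 of 100 genes changed 4-fold and 95 of 100 changed 16-fold were recovered, with 1 false call. The changed genes were drawn only from those with a mean above 5 scaled FPKM, taken on the log2 scale, and the noise was independent and normal. *Inhba*, *Inhbb* and *Cyp26b1* had means of 2.12, 0.683 and 2.94, so this recovery does not apply to them. In the simulation only the changed genes differed between groups, so it cannot say how many differences between real turns were missed. *Emilin2* was not called in wild-type mice, where apical turns were 9.31 times basal and 41.7 times middle turns by the means.

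The members and lists were chosen with earlier results of these data known, and the 7 pathway and 10 cell lists were compiled by hand. Named besides the 8 members were the 2 genes most like each (at a mean of at least 5 scaled FPKM), the listed pathway genes called in a turn contrast within a genotype or a difference between genotypes (at most 3 per list, by size of change, and otherwise the gene of highest mean), and *Gjb2*. Replicate numbers were checked for pairing by correlating the deviations of same-numbered libraries from their group means. Of 15 pairs of groups, many of them across genotypes, 4 had a correlation above 0.1. The numbers were not taken as pairs, but this check cannot exclude that same-numbered turns of a genotype came from the same mice. Alternatives were other pseudocounts (0.1 and 0.01), filters, scalings, library weights, no trend, a replicate block, only the libraries compared, a threshold of 0.05 and leaving out each library. Figures were drawn with matplotlib 3.10.9.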

Additional observations from a re-analysis of the deposited data

Results flagged for a closer look

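Members and named pathway genes are given here whose turn difference differed between the genotypes by the interaction test of limma, as homozygous minus wild-type log2 values. For middle minus basal turns these were *Inhba* (2.64) and *Emilin2* (6.68) among the 8 members, and *Gdf6* (5.99), *Smad6* (1.57), *Smad9* (-3.24), *Sostdc1* (-3.99), *Crabp1* (-3.21), *Aldh1a3* (-6.24), *Rara* (1.15) and *Lox* (4.38) among the listed pathway genes. For apical minus basal turns *Crabp1* (-3.01) was the one among the members and the pathway genes named. Genes chosen for their likeness to a member are not included. No group held enough libraries to look for a single library far from the rest.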

How the results depend on the processing

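Over the 72 changes of members and pathway genes and their 1632 alternative values, 1380 kept both direction and side of the threshold, 214 missed it, 21 newly passed it and 17 turned direction. For the 8 members the number called in homozygous apical against basal turns was 0 with no filter, 0 with only the libraries compared and 4 at an adjusted p below 0.05. Of all genes, 13, 269 and 2012 were called in these settings, against 659 in the main fit. In homozygous middle against basal turns and in its difference between genotypes it was 0 with no filter and 0 with only the libraries compared. It was 1 with a filter of 5 FPKM, with equal sums, with quantile normalization and with library weights. Over the settings that kept both libraries of each group compared, 0 to 2014 of all genes were called in the turn comparison. In its difference between genotypes 0 to 3214 were called. The main fit called 756 and 1445. In wild-type apical against middle turns it was 1 with FPKM as deposited, with equal sums, with library weights, with only the libraries compared and at 0.05. Of all genes, 16, 17, 111, 4 and 77 were called in these settings, against 14 in the main fit. It was 1 in wild-type apical against basal turns at 0.05, beside 159 of all genes. Between genotypes it was 1 in apical and in middle turns with library weights and at 0.05. Between genotypes in basal turns it was 1 with pseudocounts of 0.1 and 0.01 and 2 at 0.05. All genes called between genotypes over these settings ranged from 12 to 258 in apical, 0 to 475 in middle and 0 to 1954 in basal turns. The main fit called 29, 29 and 696. In all other comparisons these settings called no member. The cause was not tested.

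The fit with a replicate block called 1 member in homozygous apical against basal turns, where *Fst* was lost (adjusted p = 0.0116), 1 in homozygous middle against basal turns (*Inhba* lost, 0.0162) and 1 in its difference between genotypes (*Inhba* lost, 0.0164). Same-numbered libraries correlated at -0.43 to 0.45 over pairs of groups, many of them across genotypes. Whether the numbers mark turns of the same mice is therefore not known.

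Directions turned for *Inhba* in wild-type apical against basal turns, to -0.038 with quantile normalization and -0.0020 with only the libraries compared, and with equal sums for *Bmp4* (0.13) and *Cyp26b1* (0.025) in the same comparison, where equal sums moved the median of all genes by 0.20. When a library was left out, wild-type apical minus basal was -0.45 to 0.47 for *Inhba*, -0.25 to 0.067 for *Bmp4* and -0.55 to 0.34 for *Cyp26b1*. Homozygous apical minus basal was -0.22 to 0.11 for *Inhbb*, -0.25 to 0.74 for *Bmp4* and -1.21 to 0.63 for *Aldh1a2*, whose middle minus basal was -1.16 to 0.69. For *Emilin2* homozygous apical minus middle was -0.15 to 0.38, and homozygous basal minus wild-type middle was -1.74 to 0.52. With 2 libraries a group and no read counts, the spread between replicates is the only measure of precision. The filter of 5 FPKM left no value for *Inhba* and *Inhbb*, and 2 of the fits that left out a library gave none for *Inhbb*.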
